A study of Mus musculus with 12 samples.

Results

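The genes described here are the liver X receptors (LXRs), *Nr1h2* and *Nr1h3*, and 7 of their target genes in sterol efflux and lipid handling, *Abca1*, *Abcg1*, *Mylip*, *Tmem86a*, *Smpdl3a*, *Apoe* and *Lpcat3*. They were taken by symbol from the table of expression values, where 9 of 9 were found among 46983 genes. The list was made with earlier results of these data in view, and 1 of them chose a gene: *Tmem86a* was known to be among the lowest genes of PPARγ/+ cells relative to WT cells on day 5. All 9 genes passed the filter on low values, which asked for at least 0.1 FPKM (fragments scaled to transcript length and to the mapped fragments of the library) in at least 3 libraries.

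RNA was sequenced from C2C12, a mouse skeletal myoblast line that fuses into myotubes when it differentiates, in 4 groups of 3 libraries. WT_0d and WT_5d are wild type cells on day 0 (0d) and day 5 (5d) of differentiation, and the sample names mark them with PbIP, the PiggyBac vector. PPARγ/+_0d and PPARγ/+_5d are cells on the same days that carry the coding sequence of PPARγ in that PB-IP vector, a transposon that inserts into the genome, and that were selected with puromycin. The series describes the PPARγ line as inducible and its controls as uninduced, but no inducing agent is given in the sources used here, nor is it stated whether the selected cells were 1 clone or a pool. The replicates are described as biological, without saying whether each came from a culture of its own, so the p-values measure the spread between these libraries.

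LXRs are nuclear receptors that are activated by oxysterols, the oxidized derivatives of cholesterol. They bind DNA together with a retinoid X receptor (RXR), typically at a pair of direct repeats spaced by 4 bases (DR4), and without ligand they recruit corepressors such as the product of *Ncor1*. Their targets remove sterol from the cell or limit its uptake, and the pathway is best known in macrophages, liver and intestine. PPARγ, the master regulator of adipocyte differentiation, also pairs with RXR, typically at repeats spaced by 1 base (DR1), and *Nr1h3* is a known PPARγ target in macrophages.

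Promoter sequence from RefSeq (GRCm38.p6) was at hand for 7 of the 9 genes, in 10 windows from 250 bases before to 50 bases after a start site. None was at hand for *Abcg1* or *Smpdl3a*. Both strands of each window were searched for 2 copies of the half-site AGGTCA in the same direction, spaced by any 4 bases for a DR4 and by any 1 base for a DR1, so both share the half-site and matches may overlap. No window of the 9 genes held either one exactly, and of all 32851 windows of the mouse genome 0.0152% held the DR4 and 0.0396% the DR1. The 250 bases upstream of a start site are shown for *Abca1*, which had the closest DR4 match of the set, for *Tmem86a*, the gene chosen for its level on day 5, and for *Apoe*, which had the largest change with time. They run 5′ to 3′ on the strand of the gene and end at the base before the start site, and capitals mark the closest DR4 in *Abca1* and *Tmem86a* and the closest DR1 in *Apoe*.
Abca1, chr4:53159896-53160145, minus strand: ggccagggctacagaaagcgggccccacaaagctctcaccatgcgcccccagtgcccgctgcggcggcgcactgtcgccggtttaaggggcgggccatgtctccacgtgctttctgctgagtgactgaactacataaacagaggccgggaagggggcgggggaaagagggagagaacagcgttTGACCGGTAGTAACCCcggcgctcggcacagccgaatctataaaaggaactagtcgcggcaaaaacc
Tmem86a, chr7:47050390-47050639, plus strand: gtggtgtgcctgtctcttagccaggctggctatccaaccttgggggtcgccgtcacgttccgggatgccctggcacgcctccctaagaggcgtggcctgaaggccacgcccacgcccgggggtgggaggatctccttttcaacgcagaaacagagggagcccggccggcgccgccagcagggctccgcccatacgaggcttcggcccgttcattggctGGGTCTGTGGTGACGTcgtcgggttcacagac
Apoe, chr7:19699189-19699438, minus strand: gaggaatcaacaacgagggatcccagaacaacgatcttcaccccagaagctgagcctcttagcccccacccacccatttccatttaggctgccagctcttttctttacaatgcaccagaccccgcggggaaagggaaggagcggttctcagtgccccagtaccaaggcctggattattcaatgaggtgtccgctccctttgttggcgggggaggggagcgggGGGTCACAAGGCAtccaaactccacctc

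The *Abca1* match, 52 to 67 bases before the start site and read on the opposite strand, differed from the DR4 at 3 of its 12 specified bases, and 21.9% of all windows held one at least as close. The *Tmem86a* match differed at 4 bases, as close as that of 76.9% of all windows. The same held for *Nr1h2*, *Nr1h3*, *Apoe* and *Lpcat3*, and *Mylip* came no closer than 5 differences. The DR1 match of *Apoe*, 16 to 28 bases before the start site, differed at 3 bases, as did 1 in the window of *Lpcat3*, and 24.6% of all windows held one as close.

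The libraries held 18581300 to 26073154 mapped fragments each, recovered from the steps between the FPKM values. *Pparg*, the gene that was overexpressed, had 7.56, 5.1 and 6.92 FPKM in WT_0d and 44.4, 28 and 46.4 in PPARγ/+_0d, 5.92-fold higher (adjusted p = 0.00148). On day 5 it had 3.12, 3.53 and 4.59 FPKM in WT cells and 40.1, 44.1 and 92.7 in PPARγ/+ cells. Replicate 3 of PPARγ/+_5d stood apart, with 2.2 times the mean *Pparg* level of replicates 1 and 2. The summed level of 7 adipocyte markers was 94.4 FPKM there, against 39.4 and 46.6 in replicates 1 and 2. It was 14.2 to 16.5 in PPARγ/+_0d, 11.8 to 16.7 in WT_5d and 7.44 to 10 in WT_0d. *Cebpa* made up most of the sum in these groups, with 9.3 to 10.2 FPKM in PPARγ/+_0d and 8.36 to 14 in WT_5d. *Adipoq* had a mean of 1.82 FPKM in PPARγ/+_0d and 0.00948 in WT_5d, and *Fabp4* had 1.86 and 0.0204. *Cd36* and *Lipe* had higher means in WT_5d, 1.35 and 1.56, than in PPARγ/+_0d, 0.596 and 1.17. Among the WT_5d libraries, replicate 3 had the lowest sum of 10 muscle markers, 973 FPKM against 4307 and 3282. *Acta1* was the largest part of that sum, with 491 FPKM against 2156 and 1725. Of 8 macrophage markers, *Adgre1*, *Ptprc*, *C1qa*, *Itgam* and *Csf1r* were at or near 0 in all libraries, and *Cd68*, *Cd14* and *Lyz2* were measured. The summed level was 11.1 to 13.2 FPKM in WT_0d, 8.26 to 18.5 in WT_5d, 13.4 to 14.4 in PPARγ/+_0d and 14.5 to 16.5 in PPARγ/+_5d. From 0d to 5d *Lyz2* was 3.38-fold higher in WT and 2.2-fold higher in PPARγ/+ cells. *Cd68* was 1.58-fold and 1.36-fold lower, and *Cd14* overlapped between the days in both. RNA of whole cultures does not tell more cells of a kind from more RNA per cell.

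From 0d to 5d, *Apoe*, *Smpdl3a* and *Abca1* rose in both cell types, while the receptors and *Lpcat3* were not called in either. The rise was 4.59-fold in WT and 10.6-fold in PPARγ/+ cells for *Apoe*, 4.27-fold and 2.64-fold for *Smpdl3a*, and 2.02-fold and 2.81-fold for *Abca1*. *Mylip* was 1.96-fold and 1.91-fold higher, past the p threshold but just short of 2-fold, and *Tmem86a* was 2.86-fold higher in WT and 1.64-fold higher in PPARγ/+ cells. In PPARγ/+ cells *Abcg1* was 1.98-fold higher. Genes were called here at an unadjusted p of at most 0.05 with a change of at least 2-fold, in a limma fit on log2(FPKM + 0.1) that understates the fold change of low genes. Leaving *Tmem86a* out of the count, 3 of 8 genes were called higher and 0 lower in WT cells, where 8.94% of the 18023 genes tested were called higher and 7.53% lower. In PPARγ/+ cells 3 of 8 were called higher and 0 lower, against 9.11% and 6.06% of all genes. The median log2 change of the 8 genes was 0.91 in WT and 0.96 in PPARγ/+ cells, and that of all genes tested was −0.08 and −0.10. Over the same days the summed level of the muscle markers went from 135 to 307 FPKM up to 973 to 4307 in WT cells and from 61.9 to 97.6 up to 1039 to 1224 in PPARγ/+ cells. The sum of 7 fibroblast markers went from 546 to 704 up to 1331 to 1863 in WT cells and from 415 to 537 up to 1821 to 1944 in PPARγ/+ cells. *Col3a1* was the largest part of the fibroblast sum on 5d, with 634 to 974 FPKM in WT and 878 to 899 in PPARγ/+ cells. The sums hide single genes: of 10 muscle markers, 7 were called higher and 1 lower in WT cells, and 8 and 0 in PPARγ/+ cells. The lower one was *Myf5* (log2 −1.46). Of 6 fibroblast markers tested, 3 were called higher in WT and 4 in PPARγ/+ cells, and 0 lower. The part of these cell states in the rise of the sterol genes was not tested.

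**Figure D1:**
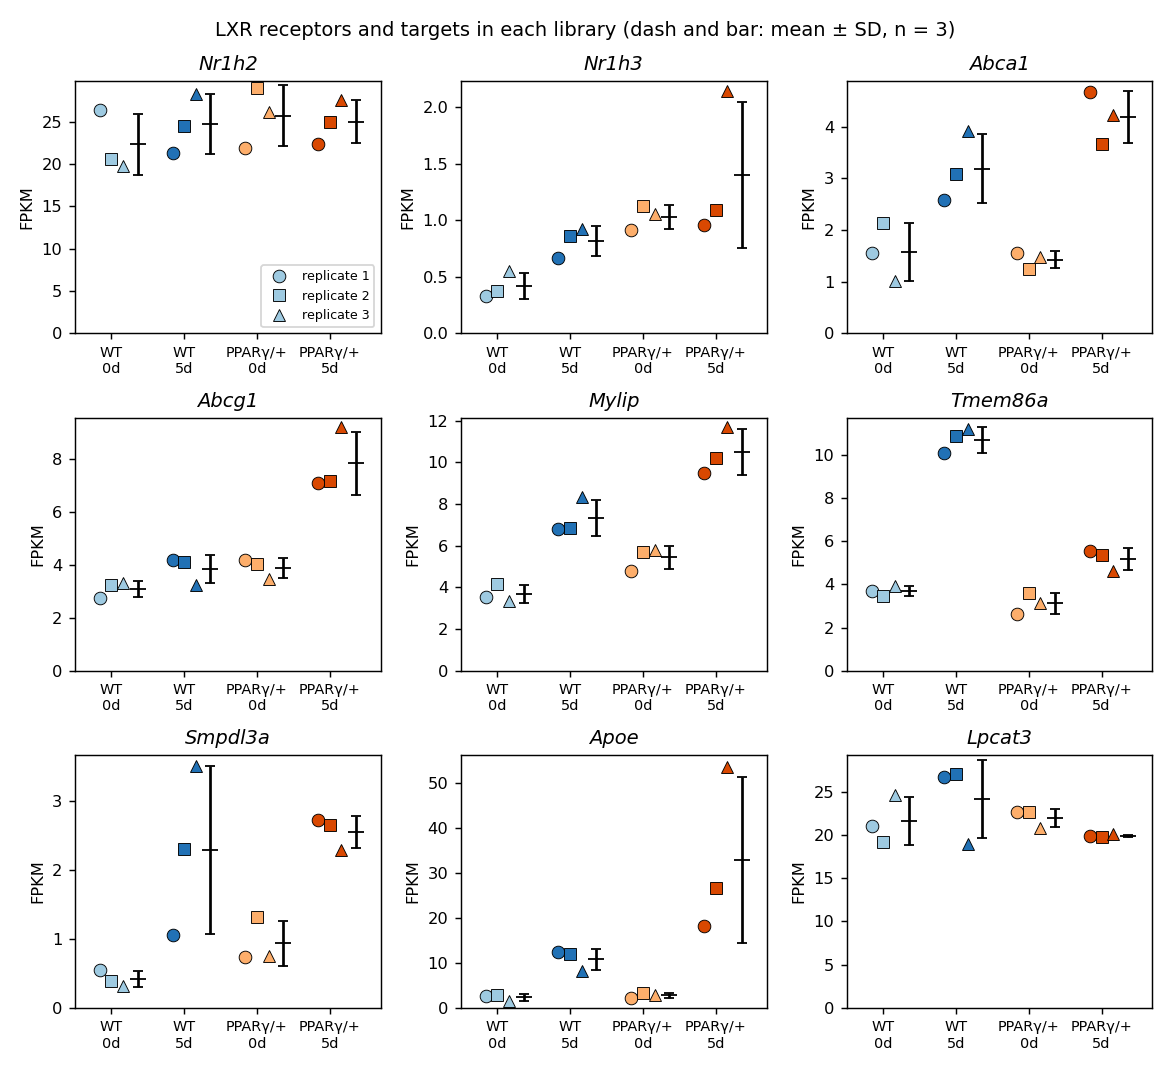
FPKM of the 2 receptors and 7 targets in each library, by group, on axes that start at 0. Symbols mark replicates 1 to 3, and the dash and bar beside them give the mean and SD of the 3 libraries. *Abca1*, *Apoe*, *Mylip* and *Tmem86a* were higher in every 5d library than in every 0d library, and *Smpdl3a* was so within each cell type. *Nr1h2* overlapped among all 4 groups. The share of all genes tested whose libraries separate is not given, so nothing is read from such separations, here or in the text.

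The level of *Nr1h2* in FPKM was 12.9 to 80.3 times that of *Nr1h3* in the 12 libraries. *Nr1h2* (ENSMUSG00000060601, GRCm38 chr7:44549616-44553951) encodes LXRβ, the widely expressed form. Its levels were 26.3, 20.6 and 19.8 FPKM in WT_0d, 21.3, 24.5 and 28.3 in WT_5d, 21.9, 29 and 26.1 in PPARγ/+_0d and 22.4, 24.9 and 27.5 in PPARγ/+_5d. All groups overlapped, and the log2 change from 0d to 5d was 0.15 in WT cells (95% interval −0.21 to 0.51) and −0.04 in PPARγ/+ cells (−0.32 to 0.25), so a 2-fold change lay outside both intervals.

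*Nr1h3* (ENSMUSG00000002108, chr2:91184061-91202834) encodes LXRα, the form of liver, adipose tissue and macrophages. It was measured at 0.328, 0.378 and 0.55 FPKM in WT_0d, 0.671, 0.865 and 0.925 in WT_5d, 0.912, 1.13 and 1.06 in PPARγ/+_0d and 0.959, 1.09 and 2.14 in PPARγ/+_5d. Every library of the other 3 groups lay above every WT_0d library. These values rest on 16 to 100 fragments per library, and 34 bases of its exons also belong to *Gm13783* on the same strand. The level was 1.79-fold higher in WT_5d than in WT_0d (log2 0.84 ± 0.24 SE, adjusted p = 0.035), short of 2-fold. In PPARγ/+ cells the log2 change was 0.32 ± 0.29 (adjusted p = 0.399), and without replicate 3 of PPARγ/+_5d it was −0.01. *Nr1h3* made up 1.23% to 2.7% of the summed FPKM of both receptors in WT_0d, 3.05% to 3.41% in WT_5d, 3.75% to 3.99% in PPARγ/+_0d and 4.1% to 7.21% in PPARγ/+_5d.

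*Abca1* (ENSMUSG00000015243, chr4:53030787-53159895) exports cholesterol and phospholipid to lipid-poor apolipoprotein. It had 1.56, 2.14 and 1.02 FPKM in WT_0d, 2.59, 3.08 and 3.91 in WT_5d, 1.56, 1.24 and 1.47 in PPARγ/+_0d and 4.68, 3.66 and 4.23 in PPARγ/+_5d. The days did not overlap in either cell type, while the cell types overlapped on both days. The log2 rise was 1.01 ± 0.29 SE in WT cells (adjusted p = 0.034), but it fell under 2-fold without WT_0d replicate 3 (0.75), without WT_5d replicate 3 (0.86) and with 1 FPKM added in place of 0.1 (0.72). In PPARγ/+ cells it was 1.49 ± 0.13 (adjusted p = 2.22e-04) and stayed at 1.40 or above when any 1 library was left out.

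*Abcg1* (ENSMUSG00000024030, chr17:31057675-31117988) moves sterol towards high-density lipoprotein. Its FPKM was 2.75, 3.23 and 3.31 in WT_0d, 4.18, 4.12 and 3.23 in WT_5d, 4.19, 4.02 and 3.45 in PPARγ/+_0d and 7.1, 7.18 and 9.23 in PPARγ/+_5d. PPARγ/+_5d lay above every other library, and the WT days overlapped through replicate 3 of WT_5d. The log2 change was 0.30 ± 0.14 SE in WT cells (adjusted p = 0.157), or 0.41 without WT_5d replicate 3, and 0.99 ± 0.13 in PPARγ/+ cells (adjusted p = 9.91e-04), the latter on the edge of the 2-fold threshold. Without PPARγ/+_5d replicate 3 the latter was 0.87, and under median-ratio scaling 1.12.

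*Mylip* (ENSMUSG00000038175, chr13:45389742-45412022) encodes IDOL, a ubiquitin ligase that marks certain lipoprotein receptors for degradation. The levels were 3.54, 4.16 and 3.34 FPKM in WT_0d, 6.78, 6.84 and 8.32 in WT_5d, 4.8, 5.7 and 5.8 in PPARγ/+_0d and 9.5, 10.2 and 11.7 in PPARγ/+_5d. It was the gene of the 9 whose 4 groups separated without any overlap, in the order WT_0d, PPARγ/+_0d, WT_5d, PPARγ/+_5d. The share of all genes tested that separate in this way is not given here, so nothing is read from it. From 0d to 5d the log2 change was 0.97 ± 0.13 SE in WT cells (adjusted p = 0.00234) and 0.93 ± 0.11 in PPARγ/+ cells (adjusted p = 6.12e-04). Both passed 2-fold under median-ratio scaling, at 1.10 and 1.06.

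*Tmem86a* (ENSMUSG00000010307, chr7:47050601-47054777) encodes a lysoplasmalogenase, an enzyme of ether lipid breakdown. It had 3.68, 3.48 and 3.91 FPKM in WT_0d, 10.1, 10.9 and 11.2 in WT_5d, 2.63, 3.62 and 3.15 in PPARγ/+_0d and 5.55, 5.38 and 4.63 in PPARγ/+_5d. The cell types overlapped on 0d, both were higher on 5d, and the WT_5d libraries lay above all others. Since the gene was chosen by its low level in PPARγ/+_5d, its changes with time and its difference on 5d are a description with no test.

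*Smpdl3a* (ENSMUSG00000019872, chr10:57794335-57811830) encodes a secreted phosphodiesterase of the acid sphingomyelinase family. Its FPKM was 0.549, 0.384 and 0.314 in WT_0d, 1.06, 2.31 and 3.51 in WT_5d, 0.734, 1.32 and 0.754 in PPARγ/+_0d and 2.73, 2.66 and 2.29 in PPARγ/+_5d, on 15 to 165 fragments. The WT_5d libraries spread over more than 3-fold and overlapped both PPARγ/+ groups, and within each cell type the days did not overlap. The log2 rise was 2.09 ± 0.43 SE in WT cells (adjusted p = 0.0112) and 1.40 ± 0.23 in PPARγ/+ cells (adjusted p = 0.00246), where it was 0.89 with 1 FPKM added.

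*Apoe* (ENSMUSG00000002985, chr7:19696109-19699188) encodes apolipoprotein E, a carrier that takes up exported lipid. It had 2.71, 2.76 and 1.48 FPKM in WT_0d, 12.3, 12 and 8.12 in WT_5d, 2.24, 3.23 and 2.78 in PPARγ/+_0d and 18.3, 26.6 and 53.6 in PPARγ/+_5d. Every library on 5d was above every library on 0d, and every PPARγ/+_5d library was above every WT_5d library. The log2 rise was 2.20 ± 0.28 SE in WT cells (adjusted p = 0.00197) and 3.40 ± 0.37 in PPARγ/+ cells (adjusted p = 4.87e-04). Replicate 3 of PPARγ/+_5d, the library with the highest adipocyte marker sum, had 2.39 times the *Apoe* level of the other 2 libraries of its group, and without it the rise was 2.98.

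*Lpcat3* (ENSMUSG00000004270, chr6:124663027-124704418) encodes an acyltransferase that places polyunsaturated chains in phospholipid. Its levels were 21, 19.2 and 24.6 FPKM in WT_0d, 26.7, 27 and 19 in WT_5d, 22.7, 22.6 and 20.8 in PPARγ/+_0d and 19.9, 19.8 and 20.1 in PPARγ/+_5d. The highest of its group means was 1.21 times the lowest, with a log2 change of 0.16 in WT cells (95% interval −0.24 to 0.55) and of −0.14 in PPARγ/+ cells (−0.27 to −0.02, adjusted p = 0.0605). Of its exons, 334 bases overlap those of *Emg1* on the other strand, so part of its fragments may belong to that gene unless strand was used in counting.

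**Figure D2:**
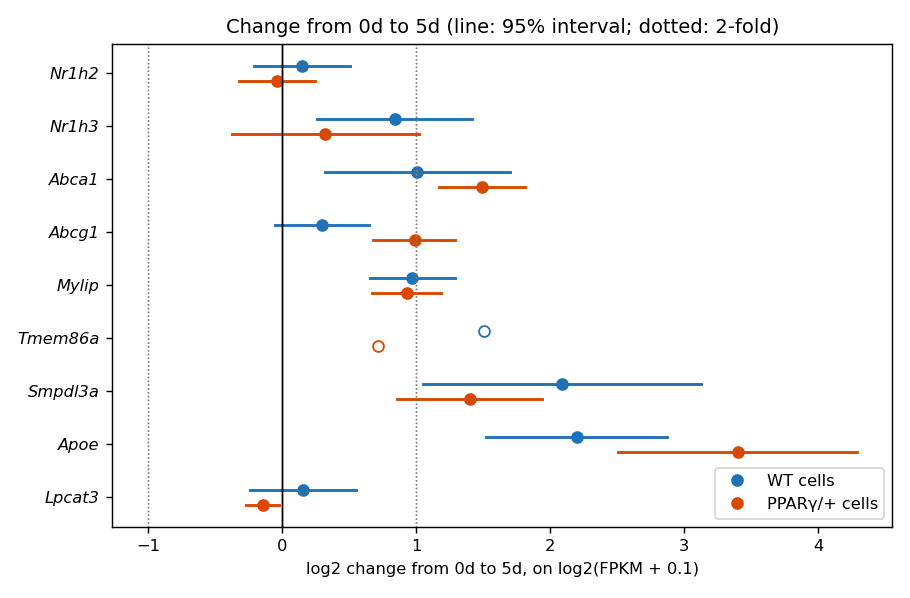
The log2 change from 0d to 5d of each gene in WT and PPARγ/+ cells, on log2(FPKM + 0.1). Points are limma estimates over 6 libraries, lines their 95% intervals, dotted lines a 2-fold change, and the open points of *Tmem86a* are values without an interval. *Apoe* lay furthest right in both cell types, at 2.20 and 3.40, and the intervals of *Nr1h2* covered 0.

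On 0d, before differentiation, the PPARγ/+ cells differed from WT cells most at *Nr1h3*, which was 2.21-fold higher (log2 1.14 ± 0.27 SE, adjusted p = 0.0361). This comparison and the next were called at an adjusted p of at most 0.05 and at least 2-fold, and they set the cell types side by side on the same day. *Nr1h3* was the 1 of 9 genes called, where 1.96% of all genes tested were called in either direction. The call was lost in 7 of 12 fits that left out 1 library, with 1 FPKM added (adjusted p = 0.0778) and without the filter on low values (adjusted p = 0.0681), while the difference kept its sign throughout. *Mylip* was 1.47-fold higher (log2 0.55 ± 0.12, adjusted p = 0.0254), under the fold threshold. *Smpdl3a* was 1.98-fold higher with libraries that did not overlap, but its adjusted p was 0.143, and *Abcg1* was 1.25-fold higher (adjusted p = 0.219). *Abca1*, *Apoe*, *Nr1h2* and *Lpcat3* overlapped between the cell types. *Tmem86a* did too, with a log2 difference of −0.24 ± 0.12 (95% interval −0.50 to 0.02, adjusted p = 0.269), so its group means of 3.13 and 3.69 FPKM did not differ beyond the spread of the libraries. Of the 7 adipocyte markers, 3 were called higher in PPARγ/+ cells on this day, *Adipoq*, *Fabp4* and *Cd36*. The estimates of all 7 were higher, as were those of 9628 of the 18023 genes tested. Of the called markers, *Adipoq* and *Cd36* were not called with 1 FPKM added. *Cd36* was also not called without WT_0d replicate 3 (adjusted p = 0.0514) or without PPARγ/+_0d replicate 3 (adjusted p = 0.063). The same held when the 6 libraries of that day were fitted alone (adjusted p = 0.0591). The markers' part in the difference of *Nr1h3* was not tested.

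On 5d the values are given as a description, since this comparison chose *Tmem86a*. Its mean was 5.18 ± 0.489 FPKM (SD, n = 3) in PPARγ/+ cells and 10.7 ± 0.583 in WT cells, 2.05-fold lower. *Apoe* was 2.78-fold higher in PPARγ/+ cells, *Abcg1* 2.01-fold, *Nr1h3* 1.55-fold, *Mylip* 1.43-fold, *Abca1* 1.31-fold and *Smpdl3a* 1.23-fold, and *Lpcat3* was 1.2-fold lower. Besides *Tmem86a*, which this comparison chose, *Abcg1* was the 1 of 8 genes past the thresholds, where 1.1% of all genes were, and nothing is read from that count. Both genes sat at the edge of 2-fold, and without PPARγ/+_5d replicate 3 neither met the thresholds, with log2 differences of −0.96 and 0.89. Without WT_5d replicate 3 *Abcg1* did not meet them either, also at 0.89. PPARγ/+_5d replicate 3 had 2.09 times the *Nr1h3* level, 1.29 times the *Abcg1* level and 0.847 times the *Tmem86a* level of the mean of replicates 1 and 2, and its part in these differences beyond the values without it was not tested. The adipocyte markers met the thresholds for 6 of 7 genes, for 4 to 6 when 1 library was left out, and for 2, *Adipoq* and *Fabp4*, when the 6 libraries of that day were fitted alone.

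**Figure D3:**
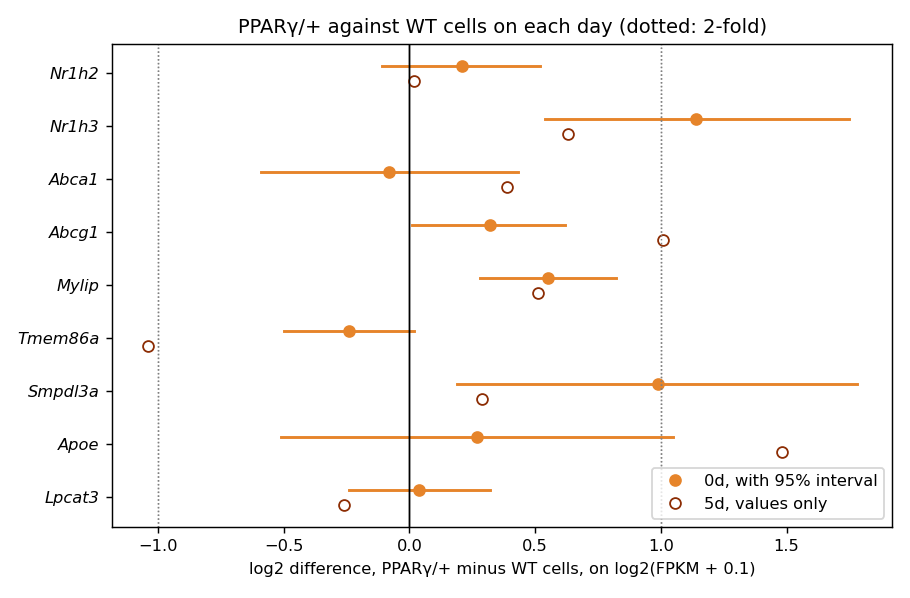
The log2 difference between PPARγ/+ and WT cells on 0d and on 5d, on log2(FPKM + 0.1). Filled points are the 0d estimates with 95% intervals, open points the 5d values without a test, and dotted lines a 2-fold difference. *Tmem86a* was at −0.24 on 0d and −1.04 on 5d, and *Apoe* at 0.27 and 1.48.

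**Figure D4:**
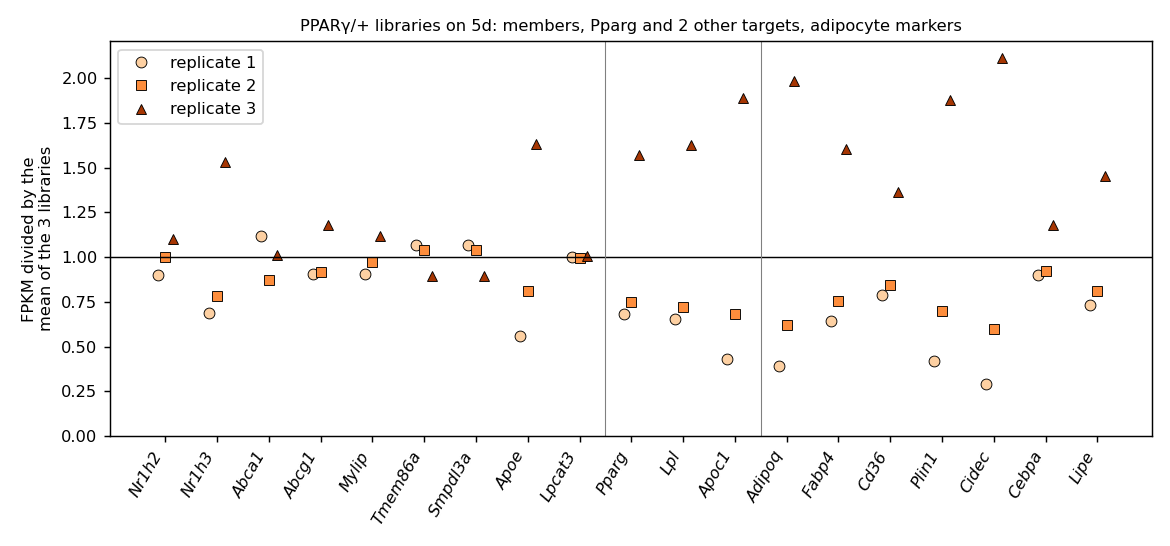
Each PPARγ/+_5d library relative to the mean of its group, for the 9 genes, for *Pparg*, *Lpl* and *Apoc1*, and for 7 adipocyte markers. Symbols mark the replicates and the line is the group mean. Replicate 3 was the highest for *Nr1h2*, *Nr1h3*, *Abcg1*, *Mylip*, *Apoe* and *Lpcat3*, for *Pparg*, *Lpl* and *Apoc1*, and for all 7 adipocyte markers. It stood at 1.01 times the mean of replicates 1 and 2 for *Lpcat3* and at 2.39 times for *Apoe*. It was the lowest for *Tmem86a* and *Smpdl3a*, and lay between the others for *Abca1*.

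Whether the change with time differed between the cell types was tested as an interaction over all 12 libraries, which share their control samples with the comparisons above. None of the 8 genes besides *Tmem86a* passed an adjusted p of 0.05 in limma, a threshold met by 0.76% of all genes, and 2 of 8 had an unadjusted p of at most 0.05, as did 12% of all genes. *Abcg1* had a coefficient of 0.69 ± 0.20 SE (95% interval 0.26 to 1.12, adjusted p = 0.167) and *Apoe* one of 1.20 ± 0.50 (0.10 to 2.31, adjusted p = 0.373), both higher in PPARγ/+ cells. The coefficient of *Mylip* was −0.04 (−0.42 to 0.34) and that of *Abca1* 0.48 (−0.25 to 1.20), so a difference of 2-fold lay outside the interval for *Mylip* and within it for *Abca1*. *Tmem86a* had the lowest coefficient of the set, −0.80, given here with no test.

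The other genes of the pathway were counted in lists that were also made with earlier results known. With time, 8.94% of all genes tested were called higher and 7.53% lower in WT cells, and 9.11% and 6.06% in PPARγ/+ cells. Between the cell types 1.96% were called on 0d and 1.1% on 5d, and 0.76% in the interaction. The partners *Rxra* and *Rxrb* and the corepressor *Ncor1* had 0 of 3 called genes in every comparison. Beside such shares, nothing is read from 0 of 3. *Rxra* was past the p threshold but well under 2-fold, with log2 changes of 0.48 in WT (adjusted p = 0.0455) and 0.31 in PPARγ/+ cells (adjusted p = 0.0295). *Rxrb* and *Ncor1* passed it in PPARγ/+ cells in the other direction, at −0.24 (adjusted p = 0.0241) and −0.23 (adjusted p = 0.0282). In WT cells they did not, at −0.08 (adjusted p = 0.691) and −0.17 (adjusted p = 0.209). *Rxrg* was listed at 0 in all libraries.

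Of 5 measured enzymes that make or convert oxysterols, the ligands of LXR, 3 rose with time in WT and 2 in PPARγ/+ cells. None was called lower, and 8.94% and 9.11% of all genes tested were called higher in WT and PPARγ/+ cells. *Cyp27a1*, the sterol 27-hydroxylase, had 0.617, 0.511 and 0.497 FPKM in WT_0d and 2.17, 2.5 and 2.83 in WT_5d (log2 2.02 ± 0.17 SE, adjusted p = 5.18e-04), and rose by 1.54 ± 0.12 in PPARγ/+ cells (adjusted p = 1.44e-04). *Ch25h*, the cholesterol 25-hydroxylase, rose by 1.88 ± 0.35 in WT (adjusted p = 0.00731) and by 1.75 ± 0.18 in PPARγ/+ cells (adjusted p = 4.19e-04). *Sult2b1*, a sulfotransferase that inactivates oxysterols, rose in WT cells (1.56 ± 0.48, adjusted p = 0.0434) from levels under 0.1 FPKM, and without WT_0d replicate 3, without WT_5d replicate 2 or with 1 FPKM added it was no longer called.

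Of 10 measured other LXR targets, 2 were called higher with time in WT cells and 4 in PPARγ/+ cells, and none was called lower. The shares of all genes tested that were called higher were 8.94% and 9.11%. *Pltp*, the phospholipid transfer protein, had 18.6, 25.3 and 17.2 FPKM in WT_0d, 47.3, 59.7 and 79.7 in WT_5d, 23, 22.2 and 26.5 in PPARγ/+_0d and 79.2, 81.9 and 86.1 in PPARγ/+_5d. Its log2 rise was 1.59 ± 0.22 SE in WT (adjusted p = 0.00278) and 1.78 ± 0.08 in PPARγ/+ cells (adjusted p = 2.10e-05). *Apoc1*, an apolipoprotein gene next to *Apoe*, was listed at 0 in all PPARγ/+_0d libraries and had 1.26, 1.99 and 5.51 FPKM in PPARγ/+_5d. In WT cells it had 0, 0.221 and 0 FPKM on 0d and 0.731, 0.483 and 0.245 on 5d, a call that was lost without WT_0d replicate 1 or 3 and with 1 FPKM added. *Lpl*, lipoprotein lipase and a known PPARγ target, rose in PPARγ/+ cells by 1.85 ± 0.36 (adjusted p = 0.00582), with 26.1, 28.8 and 65.2 FPKM on 5d, and by 1.44 without replicate 3. It was also the 1 gene of this list called on 5d, higher in PPARγ/+ cells by 2.92 ± 0.34 (adjusted p = 0.00213), but not when the 6 libraries of that day were fitted alone (adjusted p = 0.0798). *Scd1*, the stearoyl-CoA desaturase, rose by 1.36 in PPARγ/+ cells (adjusted p = 1.79e-04) and was 0.72 higher in WT cells (adjusted p = 0.0196), under 2-fold. The lipogenic targets *Srebf1*, *Fasn*, *Acaca* and *Scd2* were not called in either cell type, with log2 changes from −0.32 to 0.65. On 0d *Arl4c* was lower in PPARγ/+ cells (−1.04 ± 0.12, adjusted p = 0.00111), and it was under 2-fold with 1 FPKM added (−0.97), without WT_0d replicate 2 (−0.99) and without PPARγ/+_0d replicate 2 (−0.97). With time *Arl4c* had a log2 change of −0.77 ± 0.12 SE in WT cells (adjusted p = 0.00414), past the p threshold but short of 2-fold, and its log2 change in PPARγ/+ cells was −0.18 (adjusted p = 0.187).

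Among 11 genes of sterol uptake and trafficking, the lipoprotein receptor genes *Vldlr* and *Lrp8* moved in opposite directions. *Vldlr* rose by 2.53 ± 0.40 SE in WT (adjusted p = 0.00442) and 1.72 ± 0.21 in PPARγ/+ cells (adjusted p = 7.01e-04), while *Lrp8* fell by 2.07 in WT (SE 0.20, adjusted p = 8.01e-04) and by 1.85 in PPARγ/+ cells (SE 0.23, adjusted p = 7.77e-04). Both encode proteins that IDOL is known to target. *Scarb1*, the HDL receptor, fell by 1.20 in PPARγ/+ cells (SE 0.10, adjusted p = 1.83e-04), or by 0.94 and under 2-fold with 1 FPKM added. In WT cells its log2 change was −0.92 ± 0.10 (adjusted p = 0.0012), also past the p threshold and short of 2-fold. The remaining 8 genes with values, among them *Npc1*, *Npc2* and *Soat1*, were not called with time in either cell type.

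**Figure D5:**
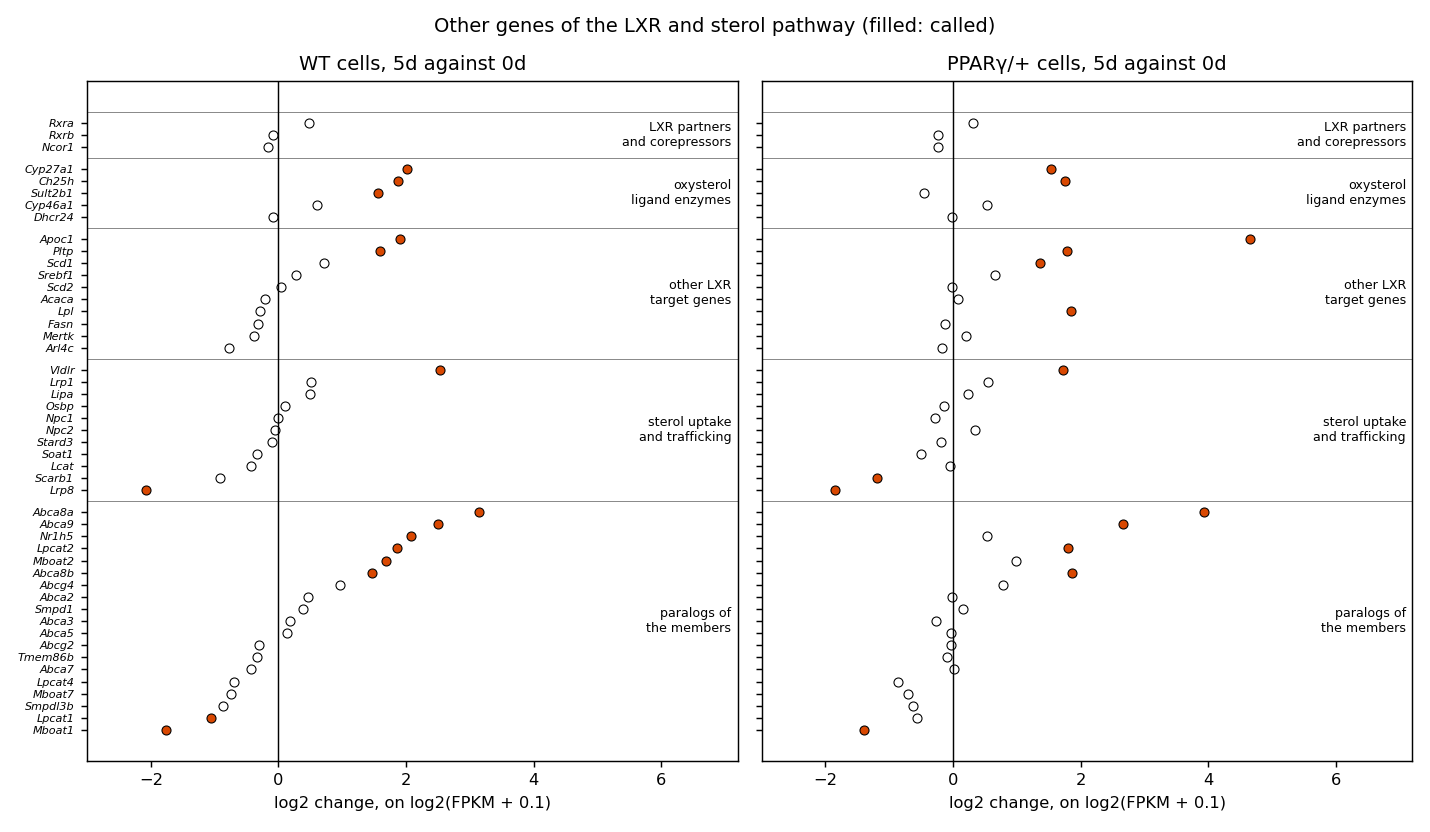
The log2 change from 0d to 5d of the other pathway genes and of paralogs of the 9 genes, in WT and PPARγ/+ cells, grouped by list and ordered by the change in WT cells. Filled points were called at an unadjusted p of at most 0.05 and at least 2-fold. *Vldlr* and *Lrp8* were called in opposite directions in both cell types, and no partner or corepressor was called.

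Of 19 measured paralogs of the 9 genes, 6 rose and 2 fell in WT cells, and 4 rose and 1 fell in PPARγ/+ cells. Of all genes tested, 8.94% rose and 7.53% fell past the same thresholds in WT cells, and 9.11% and 6.06% in PPARγ/+ cells. The largest rises were those of transporters of the Abca8 group. *Abca8a* went up by 3.15 ± 0.38 SE in WT (adjusted p = 0.00168) and by 3.93 ± 0.29 in PPARγ/+ cells (adjusted p = 1.03e-04), and *Abca9* by 2.50 ± 0.44 (adjusted p = 0.00619) and 2.66 ± 0.21 (adjusted p = 1.33e-04). No paralog was called between the cell types on either day. As 1.96% of all genes tested were called on 0d and 1.1% on 5d, nothing is read from that.

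The genes whose levels ran most like each of the 9 were found by Pearson's r of log2(FPKM + 0.1) over the 12 libraries, among 11681 genes with a mean of at least 1 FPKM. These correlations span 4 groups, so they follow the group differences. *Abca1* was closest to *Ranbp6* (r = 0.983), followed by *Igsf3* (0.965) and *Pltp* (0.962), and for the other genes the 1 closest is named. *Apoe* was closest to *Rarres2* (0.988), *Mylip* to *Ecm2* (0.985), *Smpdl3a* to *Usp35* (0.984), *Tmem86a* to *Grasp* (0.970), *Abcg1* to *Acyp2* (0.963), *Nr1h3* to *Nudt13* (0.956), *Lpcat3* to *Usp20* (0.951) and *Nr1h2* to *Zfp523* (0.935). Among the 9 genes themselves, r was highest for *Mylip* with *Apoe* (0.93) and with *Smpdl3a* (0.91), and lowest for *Abca1* with *Lpcat3* (−0.34). *Nr1h3* had an r of 0.80 with *Mylip* and 0.75 with *Abcg1*, and *Tmem86a* one of 0.09 with *Abcg1*.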

How the data were processed

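RNA of C2C12 cells was sequenced in 12 libraries, 3 for each of 4 groups. For the deposited FPKM values used here, the authors ran Trim Galore on the paired reads, STAR for alignment and HTSeq for counts per Ensembl gene. Their methods name GRCm38, while the submitters' processing notes name mm9, so positions are those of GRCm38 in a later annotation. A deposited table by the authors holds log2(FPKM + 1), which differed from the FPKM table by at most 5.3e-14 and was not analysed further. FPKM depends on the gene length used and on the total per library, so 1 large change can shift all other genes.

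limma 3.58.1 (empirical Bayes with a trend, R 4.3.3) was run on log2(FPKM + 0.1) of the 18023 genes with at least 0.1 FPKM in at least 3 libraries. 5d was compared with 0d within each cell type on its own 6 libraries, the cell types and the interaction in 1 fit of 12 libraries. Adjusted p-values are Benjamini-Hochberg over all genes tested. The fits were tested on simulated data. Fragments were recovered with FPKM steps: the annotated length gave whole numbers, within 0.01, for 78.2% of 27138 expressed genes, and lengths of *Nr1h2*, *Abcg1*, *Mylip*, *Tmem86a* and *Apoe* were inferred. Precision is limited by 3 libraries per group and, for *Nr1h3* and *Smpdl3a*, by few fragments. No 2 libraries held the same values.

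The genes and lists were chosen with earlier results of these data known. Named are the 9 genes, *Pparg*, per list and comparison up to 3 called genes with the largest change, and the genes closest by correlation. Other list genes, such as *Rxra*, *Srebf1* and *Soat1*, were named after their values were seen, and a few list genes are not reported here. Alternatives varied the added value, filter, scaling, weights, block, fit and libraries. Python 3.11.15, numpy 2.4.6, pandas 2.3.3 and matplotlib 3.10.9 were used.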

Additional observations from a re-analysis of the deposited data

Results flagged for a closer look

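Among the 9 genes and the listed genes with a test, *Myf5*, an early myogenic regulator listed as a muscle marker, was the 1 gene with a different time course in WT and PPARγ/+ cells by the interaction test (coefficient 2.20 ± 0.27 SE on the log2 scale, adjusted p = 0.00844 in limma). It had 11.3, 13.2 and 11.6 FPKM in WT_0d, 5.96, 3.53 and 3.79 in WT_5d, 3.66, 4.25 and 3.96 in PPARγ/+_0d and 5.58, 6.27 and 8.47 in PPARγ/+_5d. It was lower on 5d in WT cells and higher on 5d in PPARγ/+ cells. The lists held 87 genes besides the 9, not all of them tested. Of all genes tested, 0.76% passed the same threshold, so nothing is read from 1 gene among the lists.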

How the results depend on the processing

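Of 846 repeats of single values of the 9 genes under other settings, 779 kept direction and side of the threshold, 21 fell below it, 26 rose above it and 20 changed sign. Counts of called genes with time and in the interaction are over the 8 genes besides *Tmem86a*, and those between cell types over all 9. The counts on 5d thus cover *Tmem86a*, which that comparison chose, so nothing is read from them or from their stability. The count from 0d to 5d in WT cells was 2 to 4 when 1 library was left out. In PPARγ/+ cells it was 3 to 4, and 5 under median-ratio scaling and under quantile normalization, which added *Mylip* and *Abcg1*. Median-ratio scaling moved the median of all genes with time from −0.08 to 0.02 for WT cells and from −0.10 to 0.02 for the PPARγ/+ line. On 0d the count was 0 with 1 FPKM added, 0 without the filter, 2 with array weights, and 0 to 1 with a library left out. On 5d it was 0 with 1 FPKM added, 1 under median-ratio scaling, 1 with the 6 libraries of that day alone, and 0 to 3 with a library left out. In the interaction it was 2 with array weights, whose estimation stopped before its tolerance. The cause was not tested for any of these.

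Values near 0 changed sign. In PPARγ/+ cells from 0d to 5d *Nr1h2* was 0.09 under median-ratio scaling, 0.11 under quantile normalization and −0.14 to 0.06 with a library left out, *Nr1h3* was −0.01 to 0.53 with a library left out, and *Lpcat3* was 0.01 under quantile normalization. On 0d *Lpcat3* was −0.001 under median-ratio scaling and −0.04 to 0.13 with a library left out, *Abca1* −0.35 to 0.16 and *Apoe* −0.01 to 0.42. On 5d *Nr1h2* was −0.02 under median-ratio scaling and −0.08 to 0.12 with a library left out, and *Smpdl3a* −0.15 to 0.66. The interaction of *Mylip* was 0.004 with 1 FPKM added and −0.13 to 0.06 with a library left out.

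Over all genes, the calls with time numbered 2970 in WT and 2735 in PPARγ/+ cells, and 1441 and 1241 with 1 FPKM added. PPARγ/+ cells had 1806 with at least 1 FPKM asked for, where fewer genes were tested. On 0d 353 genes were called, 120 with 1 FPKM added, 555 with array weights and 180 to 491 with a library left out. On 5d 199 were called, 95 with 1 FPKM added, 93 with at least 1 FPKM asked for, 1363 with array weights, 28 with the 6 libraries of that day alone and 78 to 796 with a library left out. The interaction had 137 calls, 2070 with array weights and 42 to 527 with a library left out.

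Deviations of libraries of different groups with the same replicate number correlated at −0.0678 to 0.0834, and in 9 of 18 pairs the own number correlated best. Between PPARγ/+_0d and PPARγ/+_5d it did so for every replicate, at 0.0416, 0.0834 and 0.034. These correlations do not settle whether the libraries were paired, and the numbers were not taken as pairs. With the replicate number as a block, 3 genes were called with time in WT cells and 3 in PPARγ/+ cells. On 0d 1 was called, and in the interaction 0. The count on 5d was 2 and covers *Tmem86a*, which that comparison chose, so nothing is read from it. All these counts were the same without the block. Over all genes, the interaction had 61 calls with the block.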
